A study of Mus musculus with 8 samples.

Results

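Cytosolic ribosomal protein genes encode the proteins that join ribosomal RNA to form the small and large subunits of the ribosome. Their rows were taken from the count tables by symbol: every Rpl or Rps followed by a digit, plus Rplp0, Rplp1, Rplp2 and Rpsa, without symbols holding -ps (processed pseudogene copies), Rps6k kinases and Rps19bp1. The rule found 91 genes of 27710. Of these, 84 are annotated as protein coding and 7 as pseudogenes (Rpl32l, Rpl37rt, Rpl6l, Rps12l1, Rps3a2, Rps3a3 and Rps4l). No measured value entered the rule.

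A ribosome needs its proteins in matched amounts, and surplus free proteins are degraded. Proteins named Rps belong to the small subunit, which reads the mRNA, and those named Rpl to the large subunit, which joins the amino acids. Rplp0, Rplp1 and Rplp2 form the stalk on the large subunit that binds elongation factors. Their mRNAs start with a 5′ terminal oligopyrimidine (TOP) tract, a C followed by further pyrimidines, through which the kinase mTOR and the protein Larp1 control their translation. Blood formation is sensitive to their dose: loss of a single copy of several of them causes Diamond-Blackfan anaemia in humans, a failure of red cell production.

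The 8 libraries came from mouse bone marrow depleted of cells with mature lineage markers and cultured with added cytokines, so the cells are a mixture of progenitors and their progeny. The deficient cells carry floxed Alkbh5 with Vav-iCre, a recombinase active in blood cells, so that cells outside the blood lineage may keep the gene. The enzyme ALKBH5 erases N6-methyladenosine marks from RNA. The groups were Alkbh5-deficient cells fed 100 µM 4-thiouridine (s4U) for 2 h (3 libraries), wild-type (WT) cells fed alike (3 libraries), and 1 library each of deficient and WT cells labelled as given no agent. s4U is a uridine analogue that enters RNA made during the feed, and all libraries were made from total RNA after a chemistry that recodes it. The labels do not say that replicates are separate animals, so p-values measure only the spread between these samples, part of which may be technical. Cell numbers were not measured, so fewer cells of a type and less RNA per cell cannot be told apart.

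The start of the genes is shown first, since the TOP tract is what their mRNAs share. RefSeq promoters (GRCm38.p6) matched 66 of the 91 genes, with 78 promoters. The motif CTTTC was looked for on the coding strand from 15 bases before to 15 bases after the annotated start. It stood in 18 of 78 ribosomal protein promoters (23.1%), against 1330 of all 32851 (4.05%). CTTT alone, which every CTTTC contains, stood in 29.5% of them, against 12% of all. The 30 bases around the start are printed for 12 genes, of which 8 are described by their values below and the others are further examples. Every CTTTC is in capitals, and in Rpl7a 1 run holds an overlapping pair. The motif was found in the first 6 windows and not in the last 6, although Rps6 and Rps9 hold other runs of C and T. The windows follow RefSeq starts, which can differ from those of other annotations. Those of Rpl37a and Rpl26 end at 72711274 and 68901580, before the GENCODE gene starts at 72711290 and 68901583. A window without the motif thus does not show that the mRNA lacks the tract.
Rpl13 (chr8:123102335-123102364, plus strand): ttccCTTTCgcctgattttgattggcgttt
Rplp2 (chr7:141447636-141447665, plus strand): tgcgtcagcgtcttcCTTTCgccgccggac
Rpl35 (chr2:39005117-39005146, minus strand): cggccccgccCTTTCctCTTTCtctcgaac
Rpl28 (chr7:4792950-4792979, plus strand): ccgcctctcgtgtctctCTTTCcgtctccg
Rpl7a (chr2:26910792-26910821, plus strand): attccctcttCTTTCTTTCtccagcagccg
Rpl18 (chr7:45718056-45718085, plus strand): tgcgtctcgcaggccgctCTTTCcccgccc
Rps6 (chr4:86857353-86857382, minus strand): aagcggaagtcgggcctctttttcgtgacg
Rplp0 (chr5:115559452-115559481, plus strand): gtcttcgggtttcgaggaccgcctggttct
Rps9 (chr7:3704026-3704055, plus strand): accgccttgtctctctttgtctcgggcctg
Rpl26 (chr11:68901551-68901580, plus strand): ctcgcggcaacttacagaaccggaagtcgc
Rpsa (chr9:120127751-120127780, plus strand): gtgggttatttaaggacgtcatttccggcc
Rpl37a (chr1:72711245-72711274, plus strand): ttccgctcgccggtctaaaaccgcgcatgc

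Over the whole promoter, 250 bases before to 50 after the start, other motifs were counted on both strands. TCTCGCGA stood in 15.4% of ribosomal protein promoters and 0.995% of all, CCGGAAG, the core bound by ETS family factors, in 34.6% and 8.86%, and ATGGCGG in 17.9% and 4.05%. TATAAA stood in 10.3% and 13.6%, CCAAT in 30.8% and 37.4%, and CACGTG in 10.3% and 7.15%. These are matches of letters in annotated windows, and no binding was measured.

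Gene counts per library totalled 5723245 to 8615997. Alkbh5 had 0, 1 and 1 counts in the deficient fed libraries, against 1166, 1479 and 1061 in the WT fed libraries, and 1 count in the deficient unlabelled library, against 1263 in the WT one. Summed expression of 12 stem and progenitor markers was 1085 to 1370 counts scaled to library size (CPM) over the 8 libraries, and none of them was at 0 in all libraries. WT fed replicate 3 stood apart: the ribosomal-repeat gene Gm26917 took 14.2% of its counts, against 6.33% to 8.34% in the other 7. Across 14831 genes, log2 CPM minus each gene's mean over 8 libraries rose with GC content there (Spearman's rho 0.58). In the other fed libraries rho was -0.27 to 0.20, and in the deficient and WT unlabelled ones -0.51 and -0.50. Replicate 1 of both genotypes had fewer reads in no gene, 37.6% in the deficient and 38.3% in the WT library, against 48.9% to 52.1% elsewhere. By the sex-specific transcripts Xist and Ddx3y, replicate 2 of both fed groups was female and replicates 1 and 3 were male, while the unlabelled libraries contained both transcripts.

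To compare levels between genes, CPM was divided by the length of the merged exons in kilobases. Over the 6 fed libraries the 84 coding genes had a median of 242 CPM per kb, with quartiles of 121 and 494. Of the stalk genes, Rplp1 had 2891 ± 463 CPM per kb (SD, n = 6), the highest level, Rplp0 was next with 1642 ± 249, and Rplp2 ranked 18 with 560 ± 210. Rpl19, a large-subunit protein, followed with 1450 ± 248, then Rps23 with 1291 ± 297 and Rpsa, also known as the laminin receptor, with 1268 ± 304. Rplp1 was higher than the other 4 beyond their spread, while Rplp0, Rpl19, Rps23 and Rpsa overlapped within their SDs. The lowest coding genes were paralogues. Rpl3l, the striated muscle form of Rpl3, had 0.244 CPM per kb, and Rpl39l, a testis form of Rpl39, had 0.250. Rps27l followed with 18.3, Rpl22l1 with 21.3 and Rpl7l1 with 27.7 CPM per kb. Merged exons count every annotated exon of a gene, also rarely used ones: with the longest transcript as the length the median was 431, and with the principal transcript of 78 genes 555. Rplp1 was highest and Rpl3l and Rpl39l lowest under all 3 lengths, but Rpsa stood above Rplp0 with the longest and with the principal transcript.

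**Figure D1:**
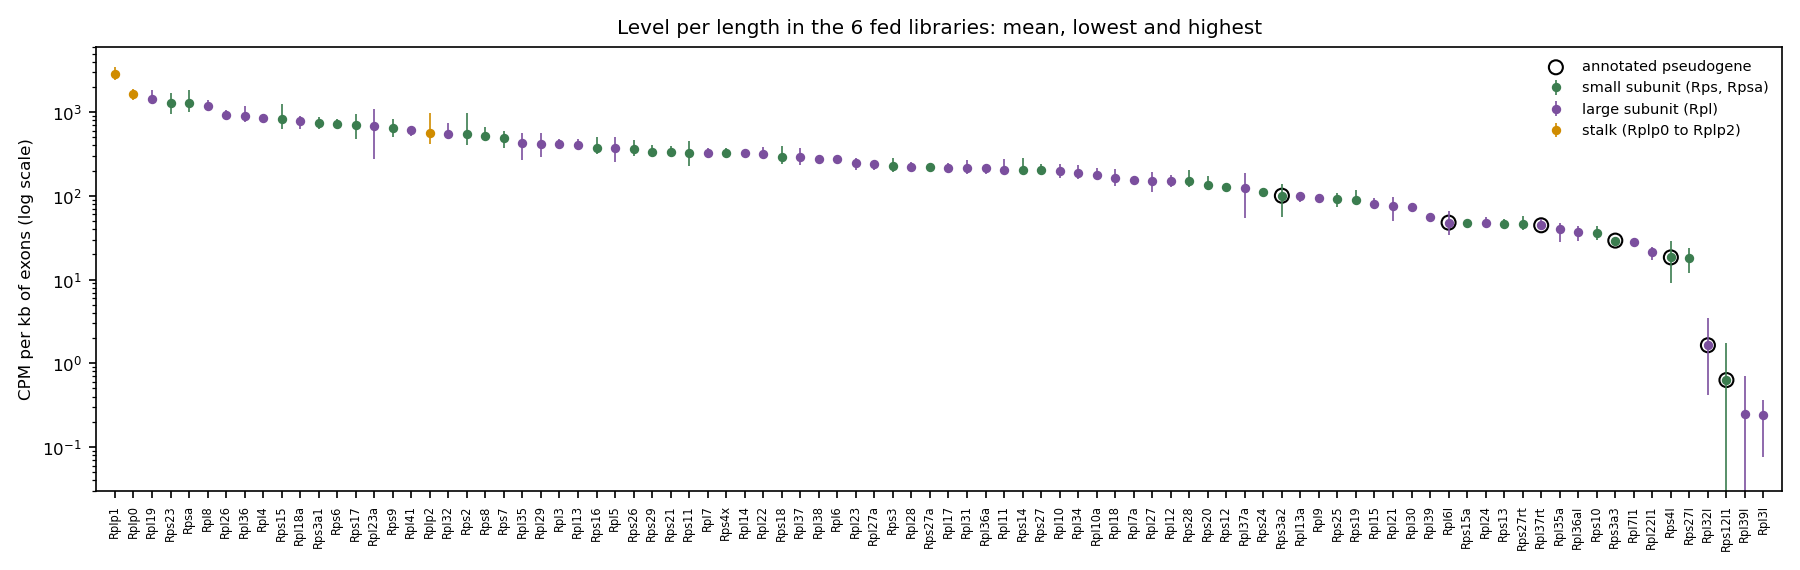
Level of ribosomal protein genes per length in the 6 fed libraries (CPM per kb of exons, log axis), ordered from high to low, with the dot at the mean and the bar from the lowest to the highest library; a bar that reaches the lower edge has a lowest value of 0. Small-subunit, large-subunit and stalk genes are coloured, and open circles mark annotated pseudogenes; Rplp1 and Rplp0 lead, and 4 genes (Rpl32l, Rps12l1, Rpl39l and Rpl3l) lie far below the rest.

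How closely the 6 fed libraries agreed differed between genes. Rpl7a was the steadiest, with 284, 276 and 267 CPM in the Alkbh5-deficient and 290, 262 and 292 CPM in the WT libraries, a coefficient of variation of 4.51%. Rps24, with 5.26%, and Rps15a, with 5.83%, came next. At the other end among the 87 genes tested between genotypes stood Rpl23a with 45.3%, Rpl37a with 45.2%, Rps4l with 44.7%, Rps2 with 39.0% and Rplp2 with 37.5%. Rps2 and Rplp2 varied in the same library, and the other 3 each in a way of their own, as their values below show.

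All 91 genes together took 5.60%, 5.08% and 4.91% of gene counts in the deficient fed libraries, against 5.53%, 5.06% and 5.32% in the WT fed libraries. The unlabelled libraries had 4.04% in deficient cells and 4.13% in WT cells. The genotypes overlapped, at 5.20% ± 0.360 in deficient fed and 5.30% ± 0.238 in WT fed libraries (SD, n = 3 each), and all 6 fed libraries were above both unlabelled ones. The counts of small-subunit genes over those of large-subunit genes stood at 0.808, 0.838 and 0.801 in deficient fed libraries, against 0.826, 0.819 and 0.986 in WT fed libraries, and 0.794 and 0.798 in the unlabelled deficient and WT libraries. WT fed replicate 3 alone was far from the others, and there Rpsa took 9.90% of ribosomal protein counts, against 6.40% to 7.71% in the other 7 libraries. The parts of Gm26917 and of GC content in this were not tested. Without Gm26917 and Gm42418 in the total, the shares averaged 5.72% in deficient fed, 6.02% in WT fed, 4.40% in deficient unlabelled and 4.51% in WT unlabelled libraries.

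**Figure D2:**
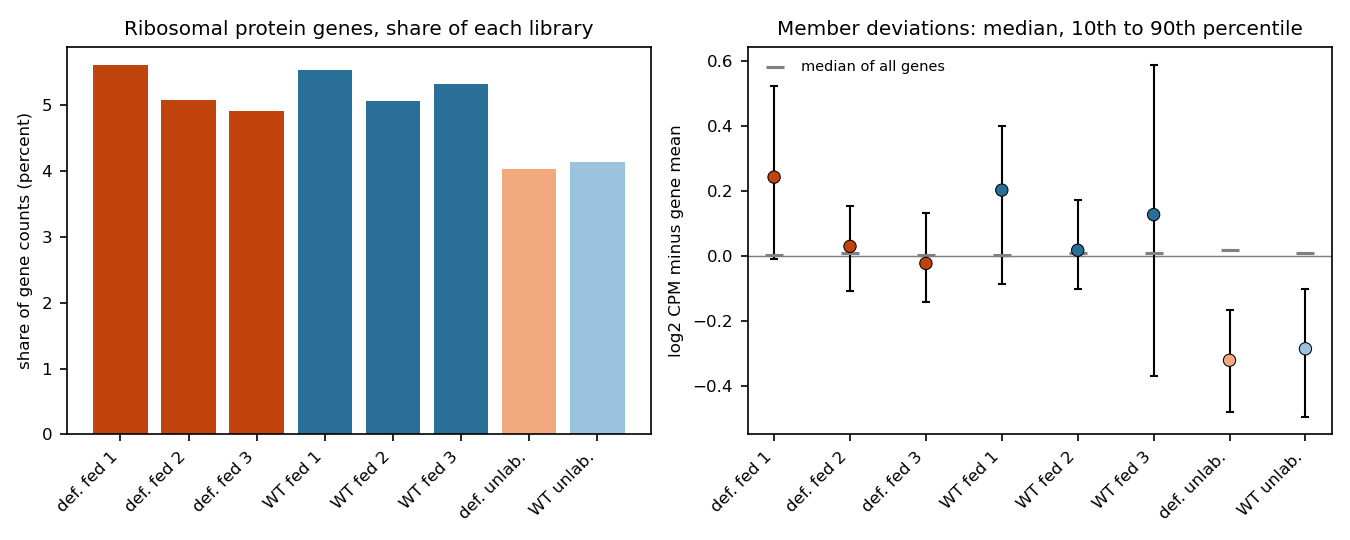
Left, share of gene counts taken by the 91 genes in each library (percent), with deficient (def.) fed, WT fed, deficient unlabelled (unlab.) and WT unlabelled libraries in order. Right, log2 CPM of the 88 genes tested over 8 libraries minus each gene's mean over them, with the dot at the median, the bar from the 10th to the 90th percentile and a dash at the median of all tested genes; the fed libraries lie above the unlabelled ones in both panels, and WT fed replicate 3 has the widest bar, -0.37 to 0.59.

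Between Alkbh5-deficient and WT fed libraries no ribosomal protein gene passed an adjusted p of 0.05 in edgeR's quasi-likelihood test or in DESeq2. The low-count filter kept 87 of the 91 genes (Rpl32l, Rpl39l, Rpl3l and Rps12l1 were too low). 1 of the 87 had an unadjusted p under 0.05, against 1.13% of all 13342 genes tested, of which 1, or 0.0075%, was called after adjustment by edgeR and 0% higher and 0.015% lower by DESeq2. The log2 fold change of deficient over WT was above 0 for 31 and below 0 for 56, with a median of -0.05, while 50.2% of all genes were above and 49.8% below 0 with a median of 0.00. Small-subunit genes had a median of -0.10 with 9 of 33 above 0, the large subunit without the stalk -0.03 with 18 of 46, and the stalk -0.10 with 0 of 3. The split between genes above and below 0 followed single libraries: the number above 0 was 10 of 87 without deficient replicate 1, 24 without WT replicate 3 and 54 without replicate 3 of both genotypes. Corrected for exon length it was 45, with a median of 0.00, and corrected for GC content it was 40, with a median of -0.03. Of mast cell, basophil and eosinophil markers 0 of 9 were above 0 (median -0.49), 3 of them lower at an unadjusted p under 0.05 (0.735% of all genes). Of monocyte and macrophage markers 9 of 10 were above 0 (median 0.22), and of neutrophil markers 4 of 12 (median -0.15). Erythroid markers were above 0 in 4 of 12 (median -0.22). Of these 12, 2 were lower at an unadjusted p under 0.05 in edgeR (0.735% of all genes). Stromal markers were above 0 in 0 of 5 (median -0.81) and dendritic cell markers in 0 of 6 (-0.29). T and NK cell markers were above 0 in 1 of 8 (-0.29) and megakaryocyte markers in 1 of 4 (-0.38). For B cell markers it was 3 of 8 (-0.16), and for stem and progenitor markers 5 of 12 (-0.02). The summed levels of each of these lists overlapped between genotypes, and the part of these cells was not tested.

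Rps4l was the gene with the smallest p. It is a transcribed processed pseudogene (ENSMUSG00000063171.4, chromosome 6, 148354656 to 148355598, plus strand, GRCm38) related to Rps4x, the X-linked gene for a small-subunit protein, with 79.7% identity over 814 bases. Rps4l had 26.0, 27.3 and 17.4 CPM in the deficient fed libraries, against 13.1, 8.63 and 11.6 CPM in the WT fed libraries. Every deficient library was above every WT library. The unlabelled pair, which did not enter this test, had 18.8 CPM in deficient and 8.80 CPM in WT cells, from 173 and 68 counts, a ratio of 214% (95% interval 161% to 287%, counting error only). The log2 fold change between fed libraries was 1.08 ± 0.26 (SE), with an unadjusted p of 0.00267 that ranked 5 of 13342 and an adjusted p of 1.00 (edgeR). DESeq2 gave an adjusted p of 0.660, and over the alternatives run the log2 fold change was 0.81 to 1.30 and the adjusted p 0.216 to 1.00. The 12 tested genes within 1 Mb had log2 fold changes of -1.13 to 0.57 with a median of 0.16. Of these, 1 had an unadjusted p under 0.05 and none passed the adjusted threshold. Its parent Rps4x had 575, 512 and 519 CPM in deficient libraries, against 602, 506 and 466 CPM in WT libraries, which overlapped.

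Besides Rps4l, a single pair of tested genes had groups that did not overlap, both lower in deficient cells: Rpl9 and Rps27a. Groups did not overlap for 2.62% of all genes in the higher and 3.06% in the lower direction. Rps27a, which is made as a fusion of ubiquitin with a small-subunit protein, had 425, 394 and 404 CPM in deficient libraries, against 430, 455 and 487 CPM in WT libraries (log2 fold change -0.17 ± 0.14). The groups nearly touch, and the difference is little over its SE. Rpl9, a large-subunit protein, had 276, 288 and 272 CPM in deficient and 294, 293 and 323 CPM in WT libraries (-0.13 ± 0.14). Neither had an unadjusted p under 0.05.

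The next smallest p-values among genes lower in deficient cells belonged to Rps2, Rplp2, Rps3 and Rps15. Rps2, a small-subunit protein near the mRNA entry, had 760, 971 and 742 CPM in deficient fed libraries, against 858, 928 and 1788 CPM in WT fed libraries. Rplp2 had 933, 1099 and 873 CPM in deficient libraries, against 1017, 1006 and 2036 CPM in WT libraries. For both the WT replicate 3 library was far above the rest, and the other 5 libraries overlapped. The log2 fold changes were -0.53 ± 0.29 and -0.48 ± 0.28. With a correction for GC content they were -0.38 ± 0.23 and -0.35 ± 0.23. Without replicate 3 of both genotypes that of Rplp2 was 0.0050, and without each library in turn that of Rps2 was between -0.72 and -0.11. Rps15 had 498, 502 and 395 CPM in deficient libraries, against 497, 444 and 796 CPM in WT libraries (-0.32 ± 0.24), and Rps3, which also acts in DNA repair, had a log2 fold change of -0.23 ± 0.17. With the GC correction Rps15 was at -0.08 ± 0.13 and Rps3 at -0.24 ± 0.16. Among genes higher in deficient cells than in WT cells, Rpl35a had a log2 fold change of 0.22 ± 0.19, Rps27l of 0.30 ± 0.29 and Rpl35 of 0.20 ± 0.25. In Rpl35a and Rpl35 WT replicate 3 was the lowest library: Rpl35 had 704, 478 and 531 CPM in deficient libraries, against 616, 532 and 333 CPM in WT libraries. Without that library its log2 fold change was -0.0067.

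**Figure D3:**
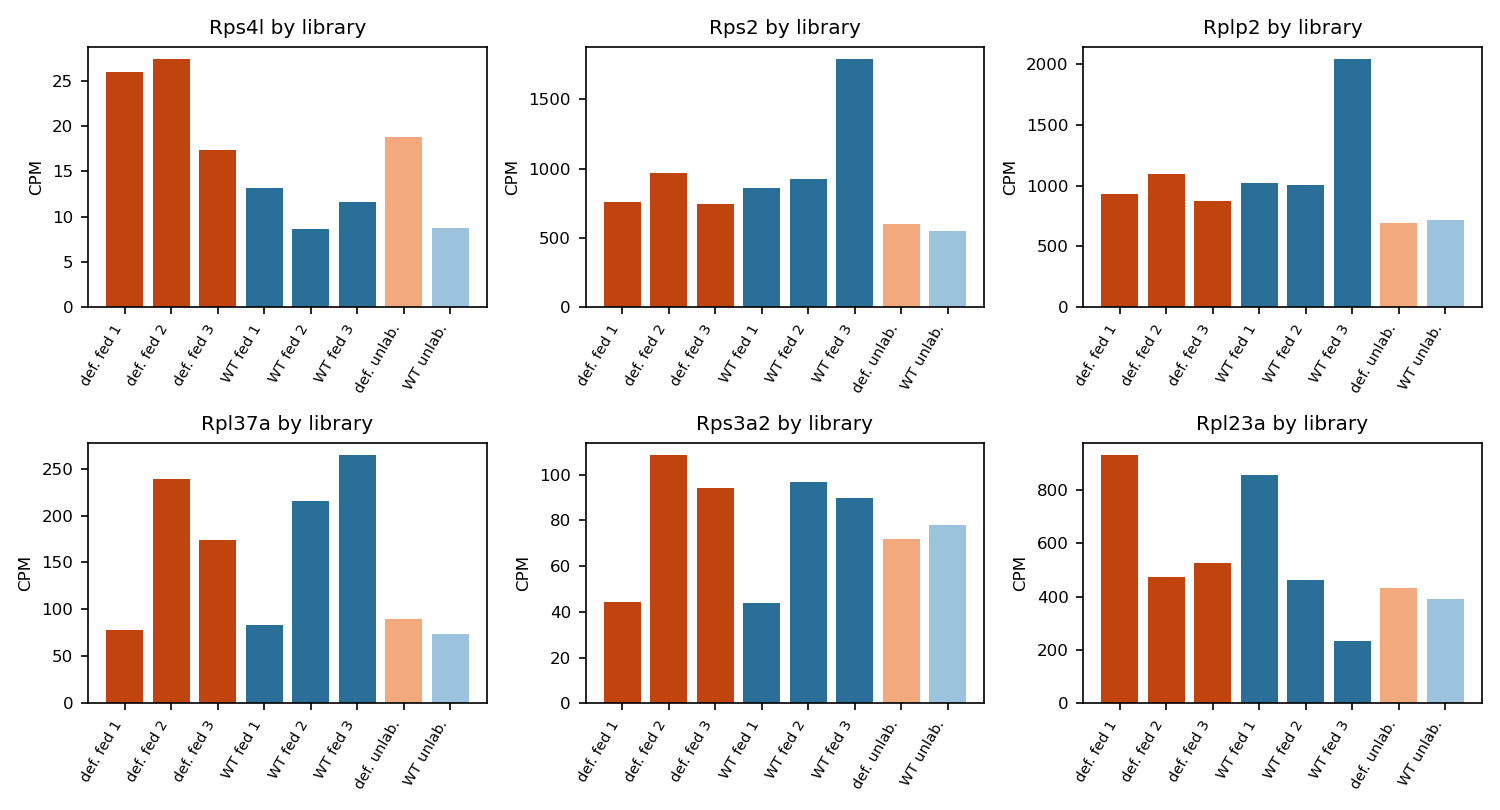
CPM by library for 6 genes (linear axes from 0), with deficient (def.) fed, WT fed, deficient unlabelled and WT unlabelled bars from left to right. Rps4l is higher in each deficient library than in each WT library, Rps2 and Rplp2 are high in WT fed replicate 3, Rpl37a and Rps3a2 are low in replicate 1 of both genotypes, and Rpl23a is high there.

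The 20 genes whose human forms are mutated in Diamond-Blackfan anaemia or, for Rps14, deleted in 5q- syndrome were read as a group. Between genotypes 6 were above and 14 below 0, with a median of -0.09 and log2 fold changes from -0.26 to 0.22. None had an unadjusted p under 0.05. Rps19, the gene most often mutated in that anaemia, had 403, 400 and 390 CPM in deficient libraries, against 380, 393 and 551 CPM in WT libraries. Rps14 had 421, 477 and 430 CPM in deficient libraries, against 441, 461 and 684 CPM in WT libraries. Rpl5 and Rpl11, which form with 5S ribosomal RNA the particle that binds Mdm2, stood on opposite sides in WT replicate 3. Rpl11 had 504, 539 and 487 CPM in deficient libraries, against 537, 501 and 751 CPM in WT libraries. Rpl5 had 1999, 1261 and 1343 CPM in deficient libraries, against 1716, 1373 and 1005 CPM in WT libraries. For Rpl11 WT replicate 3 was the highest of the 6, and for Rpl5 it was the lowest.

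In s4U-fed against unlabelled libraries, with genotype as a term over all 8, no gene of the 88 tested passed an adjusted p of 0.05 in edgeR, where 4 of 14988 genes, or 0.0267%, did. At an unadjusted p under 0.05, 51 ribosomal protein genes were higher in fed libraries and 0 lower, against 9.53% and 10% of all genes. DESeq2 called 14 higher and 0 lower after adjustment, against 2.21% and 1.86% of all genes. The log2 fold change was above 0 for 86 of the 88, with a median of 0.40, while 52.1% of all genes were above 0 with a median of 0.03. All 6 fed libraries were above both unlabelled ones for 60 genes, and for 0 they were all below, against 14.7% and 16.2% of all genes. The stalk had a median of 0.70 (3 of 3 above 0), the small subunit 0.43 (32 of 33), the large subunit without the stalk 0.39 (45 of 46) and the members annotated as pseudogenes 0.42 (6 of 6).

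The genes called by DESeq2 included Rps6, Rps7, Rps9 and Rpsa of the small subunit, Rpl3, Rpl7a, Rpl8, Rpl9, Rpl13, Rpl22 and Rpl26 of the large subunit, and Rplp0 and Rplp1 of the stalk. Rps6, the small-subunit protein phosphorylated by S6 kinase, had 1309, 1066 and 1024 CPM in deficient fed and 1253, 1022 and 1182 CPM in WT fed libraries, against 729 and 732 CPM in the deficient and WT unlabelled libraries. Every fed library was clear of the unlabelled pair, whose members nearly coincide. The log2 fold change was 0.65 ± 0.16, with an adjusted p of 0.165 in edgeR and 0.00904 in DESeq2. Rplp0 had 3135, 2464 and 2299 CPM in deficient fed and 3061, 2291 and 3092 CPM in WT fed libraries, against 1701 and 1570 CPM in the deficient and WT unlabelled libraries (0.73 ± 0.19). Rplp1 had 1746, 1257 and 1211 CPM in deficient fed and 1651, 1255 and 1534 CPM in WT fed libraries, against 908 and 865 CPM in the deficient and WT unlabelled libraries (0.70 ± 0.19). Both stalk genes were well above the unlabelled pair in each fed library, and replicate 1 was the highest deficient one. Rpl13 had 1149, 972 and 933 CPM in deficient fed and 1106, 915 and 1233 CPM in WT fed libraries, against 659 and 662 CPM in the deficient and WT unlabelled libraries (0.67 ± 0.17).

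The steadiest gene among fed libraries, Rpl7a, was also apart from the unlabelled pair, at 214 CPM in deficient and 210 CPM in WT unlabelled cells, with a log2 fold change of 0.39 ± 0.13. The largest value belonged to Rpl37a, at 1.10 ± 0.48, although replicate 1 of both genotypes stood at the level of the unlabelled libraries. The 2 genes below 0 were Rps27l, at -0.06 ± 0.28, and Rpl7l1, at -0.05 ± 0.13. Rpl7l1 had 104, 95.1 and 94.8 CPM in deficient fed and 108, 87.8 and 91.6 CPM in WT fed libraries, against 103 and 98.0 CPM in the deficient and WT unlabelled libraries. Rpl22l1, with 0.10 ± 0.17, was also near 0, and these 3 coding paralogues were among the lowest 4 of the 88. Of the other coding paralogues tested, Rpl36al was at 0.40 and Rps27rt at 0.36, each with every fed library above both unlabelled ones. The parents Rps27, Rpl7 and Rpl22 had every fed library above both unlabelled ones: Rpl22, for instance, had 1126, 838 and 837 CPM in deficient fed and 1090, 826 and 828 CPM in WT fed libraries, against 628 and 609 CPM in the deficient and WT unlabelled libraries.

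Several measures were read beside this contrast. Each genotype has a single unlabelled library, with Xist as well as Ddx3y, where every fed library had just 1 of the pair, so feeding and the source of the cells cannot be told apart. The 12 neutrophil markers were above 0 in 12 of 12, with a median of 0.74 and summed levels of 6864 to 13328 CPM in fed libraries, against 5943 CPM in deficient and 5145 CPM in WT unlabelled libraries, and none was at 0 throughout. The 9 tested markers of mast cells, basophils and eosinophils were above 0 in 9 of 9 with a median of 0.66 and summed levels of 928 to 2378 CPM in fed libraries, against 745 CPM in deficient and 850 CPM in WT unlabelled libraries. Monocyte and macrophage markers were above 0 in 8 of 10, with a median of 0.37 and summed levels of 1801 to 4834 CPM in fed libraries, against 1792 CPM in deficient and 1755 CPM in WT unlabelled libraries. B cell markers were below 0 in 7 of 8, with a median of -0.34 and summed levels of 21.8 to 216 CPM in fed libraries, against 149 CPM in deficient and 183 CPM in WT unlabelled libraries. This fed range encloses both unlabelled values. At an unadjusted p under 0.05 in edgeR, 5 of 12 neutrophil markers and 3 of 9 mast cell, basophil and eosinophil markers were higher. DESeq2 called 2 of each of these lists higher, against 2.21% of all genes. No monocyte, macrophage or B cell marker had an unadjusted p under 0.05 in edgeR, against 9.53% of all genes higher and 10% lower. The part of these cells in the result was not tested. Ribosomal protein genes are short, with a median exon length of 1730 bases against 3871 for all tested genes. Across all 14831 genes with a length, the log2 fold change fell with exon length (Spearman's rho -0.32), while across the 88 ribosomal protein genes rho was 0.02, and genes within a library are not independent. With length as a correction the median was 0.27 and 80 of 88 were above 0 (53.9% of all genes). Then 24 had an unadjusted p under 0.05 (8.95% of all genes). After this correction rho with length was -0.01 across all genes but 0.50 across the 88, so it brought a length trend into this group. The log2 fold change rose with GC content, with a rho of 0.55 across all tested genes and 0.43 across the 88 ribosomal protein genes. With a GC correction the median was 0.37 and 86 were above 0. The number at an unadjusted p under 0.05 was 12 without the deficient unlabelled library and 2 without the WT one, with medians of 0.40 and 0.41.

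**Figure D4:**
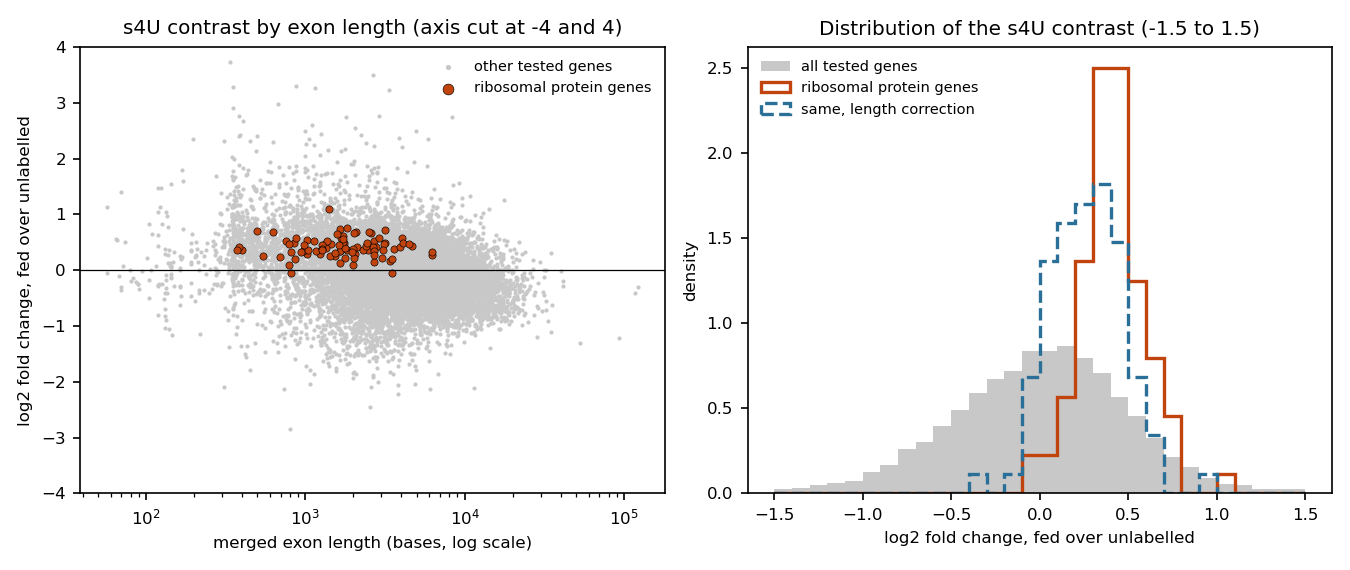
Left, log2 fold change of fed over unlabelled libraries against merged exon length (bases, log axis) for all tested genes in grey and the 88 ribosomal protein genes in orange. Right, the distribution of the same values as densities, with the ribosomal protein genes also after length correction (dashed); their median is 0.40, and 0.27 after correction, against 0.03 for all genes.

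Whether the genotype difference differed between fed and unlabelled libraries was tested as an interaction. No gene passed the adjusted threshold in edgeR or DESeq2, and 0 of the 88 ribosomal protein genes had an unadjusted p under 0.05, against 0.16% of all genes. The interaction was above 0 for 44 and below 0 for 44, with a median of 0.00, against 49% and 51% of all genes. In the unlabelled pair alone the median difference of deficient over WT was -0.06, and in the same-numbered fed pairs it was 0.05 for replicate 1, -0.00 for replicate 2 and -0.13 for replicate 3. With 1 unlabelled library per genotype, the test assumes that these vary like the fed libraries.

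Replicate 1 of both genotypes stood apart from the other fed libraries. Both replicate 1 libraries were above the other 4 fed libraries for 41 of 87 genes, against 22.3% of all genes tested, and below them for 4, against 19.2%. For replicate 2 the numbers were 1 above and 4 below, against 5.33% and 5.79% of all genes, and for replicate 3 they were 0 above and 7 below, against 4.74% and 5.37%. Across the 88 genes, which are not independent, the deviations of same-numbered deficient and WT libraries from the gene means had a Spearman's rho of 0.78 for replicate 1, 0.11 for replicate 2 and -0.53 for replicate 3. The genes below in replicate 1 were Rpl22l1, Rpl37a, Rps3a2 and Rps3a3. Rpl37a, a large-subunit protein, had 77.7, 239 and 174 CPM in deficient fed and 83.3, 215 and 264 CPM in WT fed libraries, against 89.3 and 74.0 CPM in the deficient and WT unlabelled libraries. The replicate 1 libraries lay with the unlabelled ones, and each of the other 4 fed libraries was above all of these. Rps3a2, an annotated processed pseudogene with 99.5% identity to Rps3a1, had 44.2, 108 and 94.1 CPM in deficient fed and 43.7, 96.7 and 89.8 CPM in WT fed libraries, against 71.7 and 77.8 CPM in the deficient and WT unlabelled libraries. Its parent Rps3a1 went the other way, with 819 CPM in deficient and 862 CPM in WT replicate 1, against 610 to 687 CPM in the other fed libraries.

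Rpl23a, which contacts the nascent chain at the exit of the ribosome's tunnel, had 930, 474 and 527 CPM in deficient fed and 857, 463 and 235 CPM in WT fed libraries, against 434 and 391 CPM in the deficient and WT unlabelled libraries. Replicate 1 of both genotypes was about level, and WT replicate 3 was the lowest of all 8. Measured beside this, replicate 1 had summed neutrophil markers of 12127 CPM in deficient and 13328 CPM in WT cells, against 6864 to 8140 CPM in the other fed libraries. Stromal markers summed to 107 CPM in deficient and 106 CPM in WT replicate 1, and to 377 to 1966 CPM in the other fed libraries. Reads shared by Rpl5 and the small nucleolar RNA Snord21 in its intron numbered 11 in deficient and 9 in WT replicate 1, against 93 to 137 in the other 6 libraries. Those shared by Rpl32 and Snora7a numbered 39 and 22, against 97 to 161. For Rps3 and Snord15b the replicate 1 libraries differed, with 96 in deficient and 0 in WT cells, against 52 to 122 in the other 6. The part of these differences in the replicate pattern was not tested.

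Deficient replicate 1 held the highest value of the 8 libraries for 34 of the 88 genes, WT replicate 3 for 29 and WT replicate 1 for 15. The unlabelled deficient library held the lowest for 51, the unlabelled WT library for 20 and WT replicate 3 for 11. WT replicate 3 was thus at an extreme in both directions: 18 of its values were over 0.5 log2 units from the gene's mean, against 13 in deficient replicate 1 and 1 to 9 in each of the others.

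**Figure D5:**
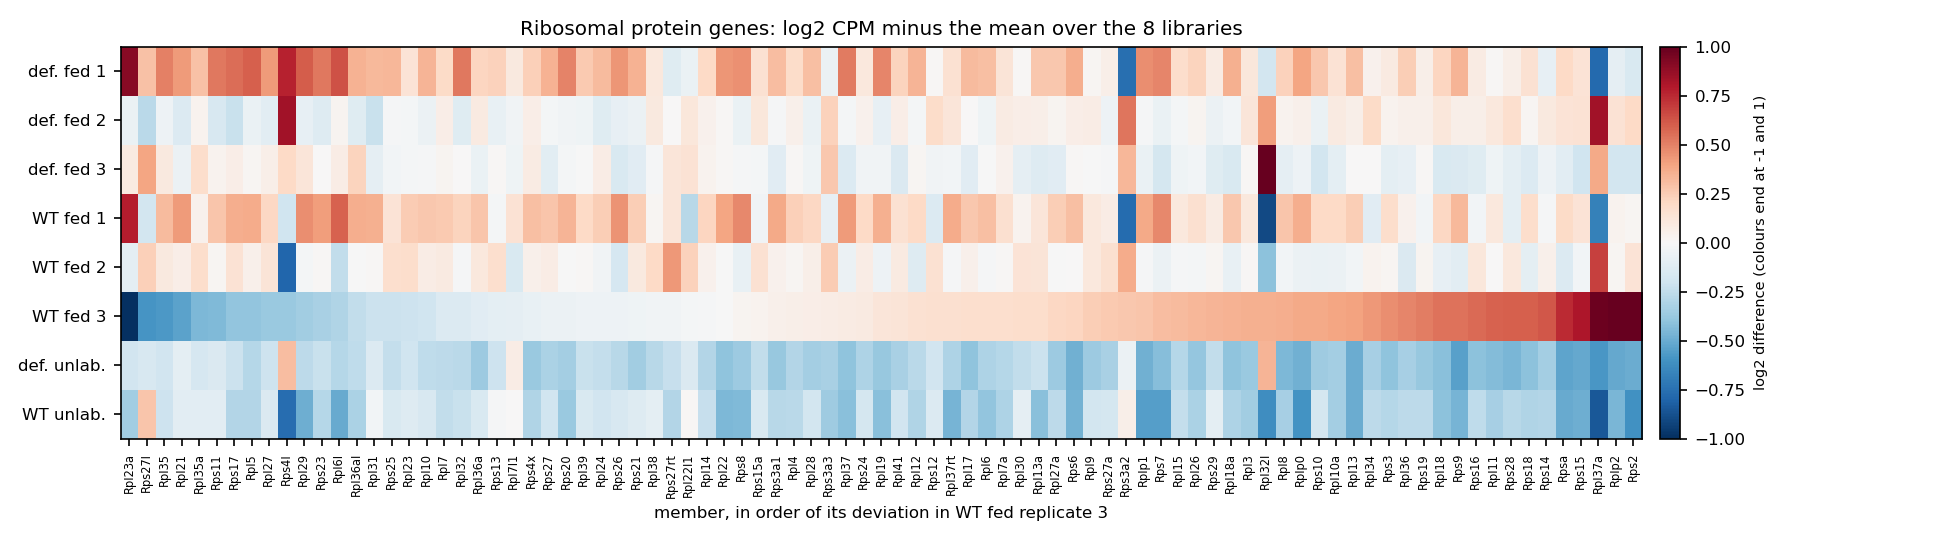
Log2 CPM of ribosomal protein genes minus each gene's mean over 8 libraries (colours end at -1 and 1), with libraries down the page (deficient, def., fed; WT fed; unlabelled, unlab.) and genes ordered by their value in WT fed replicate 3. The replicate 1 rows of both genotypes are mostly red, the unlabelled rows mostly blue, and the WT fed replicate 3 row spans the whole range, from Rpl23a at -1.08 to Rps2 at 1.08.

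Paralogues and copies limit what single rows can show, since near-identical copies may share or exchange reads. Rps27rt was identical to Rps27 over 221 aligned bases and Rps12l1 to Rps12 over 132, and Rpl37rt, Rps3a2, Rps3a3 and Rpl6l had 98.7% to 99.7% identity to their parents. Rpl6l had 57.4, 37.6 and 38.7 CPM in deficient fed and 55.5, 31.1 and 29.9 CPM in WT fed libraries, a pattern with the highest values in replicate 1, as for its parent Rpl6 in both genotypes. The coding paralogues with less likeness were Rpl36al (87.8%), Rpl39l (84.8%), Rpl7l1 (82.1% over 56 bases), Rpl22l1 (80.9% over 136 bases), Rps27l (79.5%) and Rpl3l (74.5%). Rps27l, a target of p53, had 18.1, 12.2 and 19.5 CPM in deficient fed and 12.96, 17.38 and 9.70 CPM in WT fed libraries, which overlapped. Rpl36al had 59.3, 42.8 and 54.2 CPM in deficient and 59.7, 46.4 and 39.2 CPM in WT fed libraries, but 71.5% of its reads were counted as shared with Gm49383. The same held for Rpl13a, with 90.8% shared with Gm45713, Rpl24, with 77.1% shared with Gm28037, and Rps10, with 69.9% shared with Gm49804, so that the rows of these 4 genes hold the smaller part of their reads. The 216 rows of -ps copies, which belonged to 57 of the 91 genes, had counts equal to 2.47% to 3.04% of ribosomal protein counts in each library.

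Genes that work with the ribosomal proteins were read from 4 lists, and none of their members passed the adjusted threshold between genotypes. Of 25 translation factors and other genes known or thought to carry TOP tracts, 10 were above 0 between genotypes, with a median of -0.04. In fed against unlabelled libraries 21 of the 25 were above 0, with a median of 0.37, near that of the ribosomal protein genes. Of these, 11 were higher at an unadjusted p under 0.05 (9.53% of all genes) and 6 were called higher by DESeq2 (2.21% of all genes). Rack1, a scaffold protein bound to the small subunit, had a log2 fold change of 0.64 ± 0.18, Eif3f, a subunit of an initiation factor, of 0.62 ± 0.17, and Eef1d, an elongation factor subunit, of 0.55 ± 0.15. The 48 ribosome assembly factors were split at 19 above and 29 below 0, with a median of -0.09. At an unadjusted p under 0.05, 4 were higher (9.53% of all genes) and 13 lower (10% of all genes), and DESeq2 called 4 lower (1.86% of all genes). Nmd3, the adaptor that exports the large subunit from the nucleus, had 29.7, 35.8 and 44.9 CPM in deficient fed and 26.9, 38.1 and 21.3 CPM in WT fed libraries, against 69.7 and 69.5 CPM in the deficient and WT unlabelled libraries (-1.10 ± 0.22). Every fed library was below both unlabelled ones. Riok2, a kinase of small-subunit maturation, was at -0.60 ± 0.14 and Sdad1 at -0.55 ± 0.14. Between genotypes the assembly factors had a median of -0.09 with 18 of 48 above 0.

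Of 18 genes that control TOP mRNA translation, 4 were above 0 in fed against unlabelled libraries, with a median of -0.17. Larp4, a poly(A)-binding La-related protein, was at -0.63 ± 0.14, Rictor, of the second mTOR complex, at -0.76 ± 0.25, and Tsc2, an inhibitor of mTOR signalling, at 0.54 ± 0.16. Between genotypes 9 of the 18 were above 0, with a median of 0.01. The p53 targets, which respond when ribosome assembly fails, had a median of -0.06 between genotypes (6 of 17 above 0) and of 0.02 in fed against unlabelled libraries (10 of 19 above 0). In the latter contrast DESeq2 called 1 of this list lower (1.86% of all genes) and 0 higher (2.21%). Mdm4 was at -0.84 ± 0.22, with every fed library below both unlabelled ones. Pmaip1 was at -0.37 ± 0.14 and Bax at 0.48 ± 0.21.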

How the data were processed

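The authors deposited, for each library, raw read counts per gene (whole numbers). The submitters' processing notes name cutadapt, HISAT2, Picard, HTSeq, STAR and DESeq2 with the builds mm10 and GRCm38. Roles, versions and strand use: not given in the sources used here. Genes that overlap may share reads. The labels' protocols name a SMARTer stranded total RNA kit. The tables hold 27710 genes plus 928 entries without a gene name, among them reads in several genes and reads in no gene, the last being 37.6% to 52.1% of counts. These entries stayed out of library sizes and tests. Gene types, coordinates, lengths and GC content came from GENCODE M21 (GRCm38), which 27070 symbols matched. Conversions of s4U were not analysed here.

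All genes of the table were fitted with edgeR 4.0.16 (R 4.3.3; TMM factors, filterByExpr, robust glmQLFit) and p-values were adjusted by Benjamini-Hochberg, with a threshold of 0.05. The 6 fed libraries gave the genotype contrast, and all 8 gave the s4U contrast and the interaction. DESeq2 1.42.0 was the other tool. SE is the absolute log2 fold change over the square root of F. CPM values were scaled by TMM over 8 libraries, and log2 CPM had a prior count of 2. Copies were aligned to their parents with BLAST+ 2.17.0. The script was tested on simulated data. The smallest chi-square per gene between libraries was 3.12, so none was a repeat of another. Intervals cover counting error only.

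Genes and lists were chosen with earlier results of these data known. The rule for named genes took Alkbh5, members past the threshold or the 4 with the smallest p per direction, the 5 highest and 5 lowest levels per length, paralogues with their parents, anaemia genes and up to 3 genes per list. Rpl10l, a paralogue of that rule, was not analysed here. A member that is in the counts is not reported here by name or drawn in the plots of single genes. Genes called by DESeq2, those with groups that did not overlap and those that separate replicate numbers or libraries were picked after seeing values, as were the genes in the sequence display. The labels number the replicates. Deviations from group means correlated between same-numbered deficient and WT libraries with r = 0.62, 0.26 and 0.16 for numbers 1, 2 and 3 (14988 genes). The main fit had no replicate block, and a fit with the replicate number as a block was computed too. Deficient replicate 2 with WT replicate 3, and deficient replicate 3 with WT replicate 2, correlated at 0.28 and 0.29. Both values are above those of the same-numbered libraries for numbers 2 and 3, so only number 1 stood out as a pair.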

Additional observations from a re-analysis of the deposited data

How the results depend on the processing

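No ribosomal protein gene passed the adjusted threshold between genotypes under any alternative run (RLE size factors, no filter, a filter of 1 CPM, DESeq2, a threshold of 0.1, length correction, TMM without ribosomal protein rows, members summed with -ps rows, each library left out, and, chosen after seeing the data, GC correction, reads shared with other genes added and both libraries of a replicate number left out). With the replicate block 0 passed, the median log2 fold change was -0.05 and Rps4l was at 1.08 with an adjusted p of 0.939, and the block, alone or with length or GC correction, changed no call. With each library left out the genotype median was -0.13 to 0.00, and the s4U median 0.37 to 0.43. DESeq2 called 14 genes in the s4U contrast, where edgeR called 0 under every other alternative; the cause was not tested. Length correction gave an s4U median of 0.27. The interaction median was -0.10 to 0.066 with each fed library left out, the lowest without deficient replicate 1. Directions that turned between genotypes were those of Rpl35 (-0.0067 to 0.39 over the libraries left out in turn, the lowest without WT replicate 3) and, without replicate 3 of both genotypes, Rplp2 (0.0050), Rps15 (0.087) and Rps27l (-0.014). In the s4U contrast Rps27l turned with GC correction (0.23), within deficient cells (0.34) and over the libraries left out in turn (-0.41 to 0.33). Without Gm26917 and Gm42418 the shares were 5.72% in deficient fed, 6.02% in WT fed, 4.40% in deficient unlabelled and 4.51% in WT unlabelled libraries. Levels per length had a median of 431 with the longest and 555 with the principal transcript. Low counts, such as the 60 to 79 of Rps4l in WT fed libraries, and the single unlabelled library of each genotype limit the precision.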
